A study of Mus musculus with 4 samples.

Results

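The genes described here are named for the mitochondrial ribosome and for the translocases that bring proteins into mitochondria. They were taken by symbol: Mrpl and Mrps followed by a digit for the ribosome, and Timm and Tomm followed by a digit for import. This gave 103 of the 16613 listed gene symbols, 78 for the ribosome (49 Mrpl, 29 Mrps) and 25 for import (15 Timm, 10 Tomm). Total RNA was sequenced from GFP+ cells taken from the bone marrow of recipient mice. The recipients had been given B220+ marrow cells carrying a transduced N-myc, and the labels name the resulting GFP+ cells N-myc-induced B-ALL, that is, a leukaemia of B-cell precursors, of strain C57BL/6. The donor cells were Anp32b-/- (knockout, 2 libraries) or Anp32b+/+ (wild type, 2 libraries), and both genotypes carried the N-myc transduction. The labels state neither the age of the recipients nor whether the 2 libraries of a genotype are from 2 animals. The p-values therefore cover the spread between libraries and nothing else, and that spread may be technical.

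Mitochondria make a small set of respiratory chain proteins on their own ribosome, whose RNAs are encoded in mitochondrial DNA and whose proteins are all encoded in the nucleus. Those ribosomal proteins, like nearly all mitochondrial proteins, are made in the cytosol and imported: the TOM complex of the outer membrane takes them up, the TIM23 complex passes proteins with a presequence to the inner membrane and matrix, and the small TIM proteins of the intermembrane space hand carrier proteins to the TIM22 complex. In proliferating blood cells and leukaemias, growth-driving factors such as MYC proteins are known to raise the expression of many of these genes.

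The libraries held 19581575 and 19605800 estimated reads in knockout and 19692505 and 19758671 in wild type, and 12123 symbols passed the filter on low counts. Anp32b was at 74.4 and 70.6 CPM (read count scaled to the library's size with TMM factors) in knockout, against 774 and 853 CPM in wild type. The B lineage markers were detected in all libraries: the 12 genes summed to 7058 and 7160 CPM in knockout, against 7705 and 7670 CPM in wild type, and 1 was called higher and 5 lower. Of 12 neutrophil markers, 12 were called lower. They summed to 122 and 122 CPM in knockout, against 637 and 650 CPM in wild type, and none of them was at 0. Of 8 monocyte and macrophage markers, 6 were tested and 3 were called lower, with sums of 21.8 and 21.1 CPM in knockout, against 75.1 and 72.7 CPM in wild type. None of the 9 erythroid markers was called by edgeR or by DESeq2 (2 were higher at an unadjusted p under 0.05), and they summed to 241 and 246 CPM in knockout, against 214 and 234 CPM in wild type. Of 8 T cell markers 4 were tested and 2 were called lower, of 6 NK cell markers 3 were tested and 2 were called lower, of 6 megakaryocyte markers 1 was tested and not called, and none of 6 stromal markers passed the filter. The 4 Y-linked genes Ddx3y, Eif2s3y, Kdm5d and Uty summed to 42.5 and 41.7 CPM in knockout, against 156 and 173 CPM in wild type, so the genotypes also differed in these genes. The part of these other differences in the values below was not tested, and in bulk RNA fewer cells of a type and less RNA per cell cannot be told apart.

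The promoters of 4 members are shown because these members were called higher in the results below: Mrpl34 and Mrpl12 of the large subunit, Mrps26 of the small subunit and Timm10 of the import genes. Each line gives the 250 bases before the annotated start, from RefSeq (GRCm38.p6), 5′ to 3′ on the gene's strand, which is the plus strand for all 4. Capitals mark the motif CCGGAAG, or its reverse complement CTTCCGG, which is the core bound by ETS factors such as GABP, a known regulator of nuclear genes for mitochondria. Mrpl34 lies at chr8:71464676-71464925, Mrpl12 at chr11:120484387-120484636, Mrps26 at chr2:130563507-130563756 and Timm10 at chr2:84826771-84827020.
Mrpl34: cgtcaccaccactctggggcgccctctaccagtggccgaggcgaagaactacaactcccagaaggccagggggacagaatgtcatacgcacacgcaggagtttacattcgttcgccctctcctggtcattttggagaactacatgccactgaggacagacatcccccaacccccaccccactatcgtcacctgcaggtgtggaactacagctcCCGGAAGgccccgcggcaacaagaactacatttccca
Mrpl12: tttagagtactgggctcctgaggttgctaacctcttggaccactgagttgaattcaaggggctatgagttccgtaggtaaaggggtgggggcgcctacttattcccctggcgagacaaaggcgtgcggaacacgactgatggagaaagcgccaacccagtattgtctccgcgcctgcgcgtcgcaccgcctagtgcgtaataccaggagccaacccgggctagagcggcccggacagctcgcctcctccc
Mrps26: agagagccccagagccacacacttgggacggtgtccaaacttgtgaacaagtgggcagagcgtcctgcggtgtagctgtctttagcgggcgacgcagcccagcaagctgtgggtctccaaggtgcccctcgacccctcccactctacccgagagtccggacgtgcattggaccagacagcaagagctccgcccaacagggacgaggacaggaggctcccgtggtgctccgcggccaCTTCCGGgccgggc
Timm10: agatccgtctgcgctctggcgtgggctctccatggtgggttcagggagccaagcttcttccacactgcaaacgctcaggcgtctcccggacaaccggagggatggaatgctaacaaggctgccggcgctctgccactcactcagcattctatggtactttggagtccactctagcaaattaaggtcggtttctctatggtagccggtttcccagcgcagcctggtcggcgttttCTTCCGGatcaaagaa

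The ETS motif starts 37 bases before the start of Mrpl34, 14 before that of Mrps26 and 16 before that of Timm10, and the stretch of Mrpl12 holds no match. RefSeq promoters (250 bases before to 50 after each start) matched 91 of the 103 members. CCGGAAG, on either strand, stood in 35 of these 91 (38.5%), beside 20.6% of the 9799 tested genes with a promoter and 9.93% of all 27025 genes in that table. Among ribosome genes it was in 26 of 69 promoters, and among import genes in 9 of 22. It was in 9 of the 14 matched members that were called higher and in 24 of the 74 that were not called. This contrast rests on few genes, whose calls depended on the libraries, and it was not tested. The share among all tested genes called higher was not computed, so a feature of the called members cannot be read from it. AAGATGGC, a core of YY1 sites, was in 13 of the 91 (14.3%), beside 5.39% of tested genes. CACGTG, the E-box bound by MYC and USF proteins, was in 10 of the 91 (11.0%), 5 each of ribosome and import genes, beside 11.8% of tested genes. The NRF1 palindrome, GCGCAT followed directly by GCGC, was in 3 (3.30%), all of ribosome genes, beside 2.37% of tested genes. A match is a description of the letters in this window and not a site in use.

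Ribosome and import genes differed little between the genotypes. Every one of the 78 ribosome genes passed the filter, and their log2 fold changes (knockout over wild type) lay between -0.22 and 0.28. Of the import genes 23 passed, with log2 fold changes between -0.14 and 0.31. Over the 101 tested members the 95% intervals of the log2 fold change reached from -0.40 at the lowest to 0.49 at the highest. None reached an absolute log2 fold change of 1, which 5.88% of all tested genes did and 1.08% of the 6587 tested genes within the members' range of levels. The quartiles of the members lay at 0.0047 and 0.15, and those of all tested genes at -0.16 and 0.13. The median was 0.070 for ribosome genes and 0.052 for import genes, against 0.0021 for all tested genes. Both medians stayed above 0 with RLE normalization (0.071 and 0.054) and with upper-quartile normalization (0.040 and 0.022), where that of all tested genes was -0.028. With 1 library left out in turn, the ribosome median ranged from 0.045 to 0.114 and the import median from 0.034 to 0.121. Values above 0 were seen for 59 of 78 ribosome genes and 18 of 23 import genes. The share was 50.4% of all tested genes and 56.3% of the genes within the members' range of levels.

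Of the 78 ribosome genes, 13 were called higher in knockout and 1 lower by edgeR's quasi-likelihood test at an adjusted p under 0.05. That is 16.7% and 1.28%, where 10.9% of all tested genes were called higher and 12.6% lower. With upper-quartile normalization the split was 7 higher and 2 lower, beside 8.57% and 14.6% of all tested genes. Of the 23 tested import genes, 2 were called higher and none lower (DESeq2 called none). That is 8.70% higher, below the 10.9% of all tested genes. At an unadjusted p under 0.05, which 16.9% of all tested genes passed as higher and 17.9% as lower, 5 Timm genes were higher and none lower, and 2 Tomm genes were higher and 2 lower. With upper-quartile normalization 1 import gene was called in each direction. In 50 of the 101 tested members both knockout libraries were above both wild-type libraries, a pattern seen in 30.0% of all tested genes. In 8 both were below, against 30.5% of all tested genes. For the genes within the members' range of levels these shares were 35.3% above and 26.2% below. Among those genes the median log2 fold change was 0.021, 13.4% were called higher and 9.70% lower. The calls of members depended on the libraries. Ribosome genes called higher numbered 1 with knockout replicate 1 left out, 0 with knockout replicate 2 left out, 13 with wild-type replicate 1 left out and 20 with wild-type replicate 2 left out. Those called lower numbered 0, 0, 7 and 1 in the same order, import genes called higher 1, 0, 1 and 8, and import genes called lower 0, 0, 1 and 1. All tested genes were called less often too when a knockout library was left out: 4.71% were higher and 6.94% lower without knockout replicate 1, and 2.97% and 4.63% without knockout replicate 2, while 13.5% and 13.8% were called when wild-type replicate 1 was left out, and 11.7% and 13.0% for wild-type replicate 2. DESeq2 called 2 ribosome genes higher and none lower, beside 6.01% and 6.99% of all tested genes. With no filter on low counts 3 ribosome genes were called higher and none lower, beside 3.30% and 4.49% of all genes with a read. Of the 10 alternatives run, each of the 16 called members was called in 3 to 8.

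**Figure D1:**
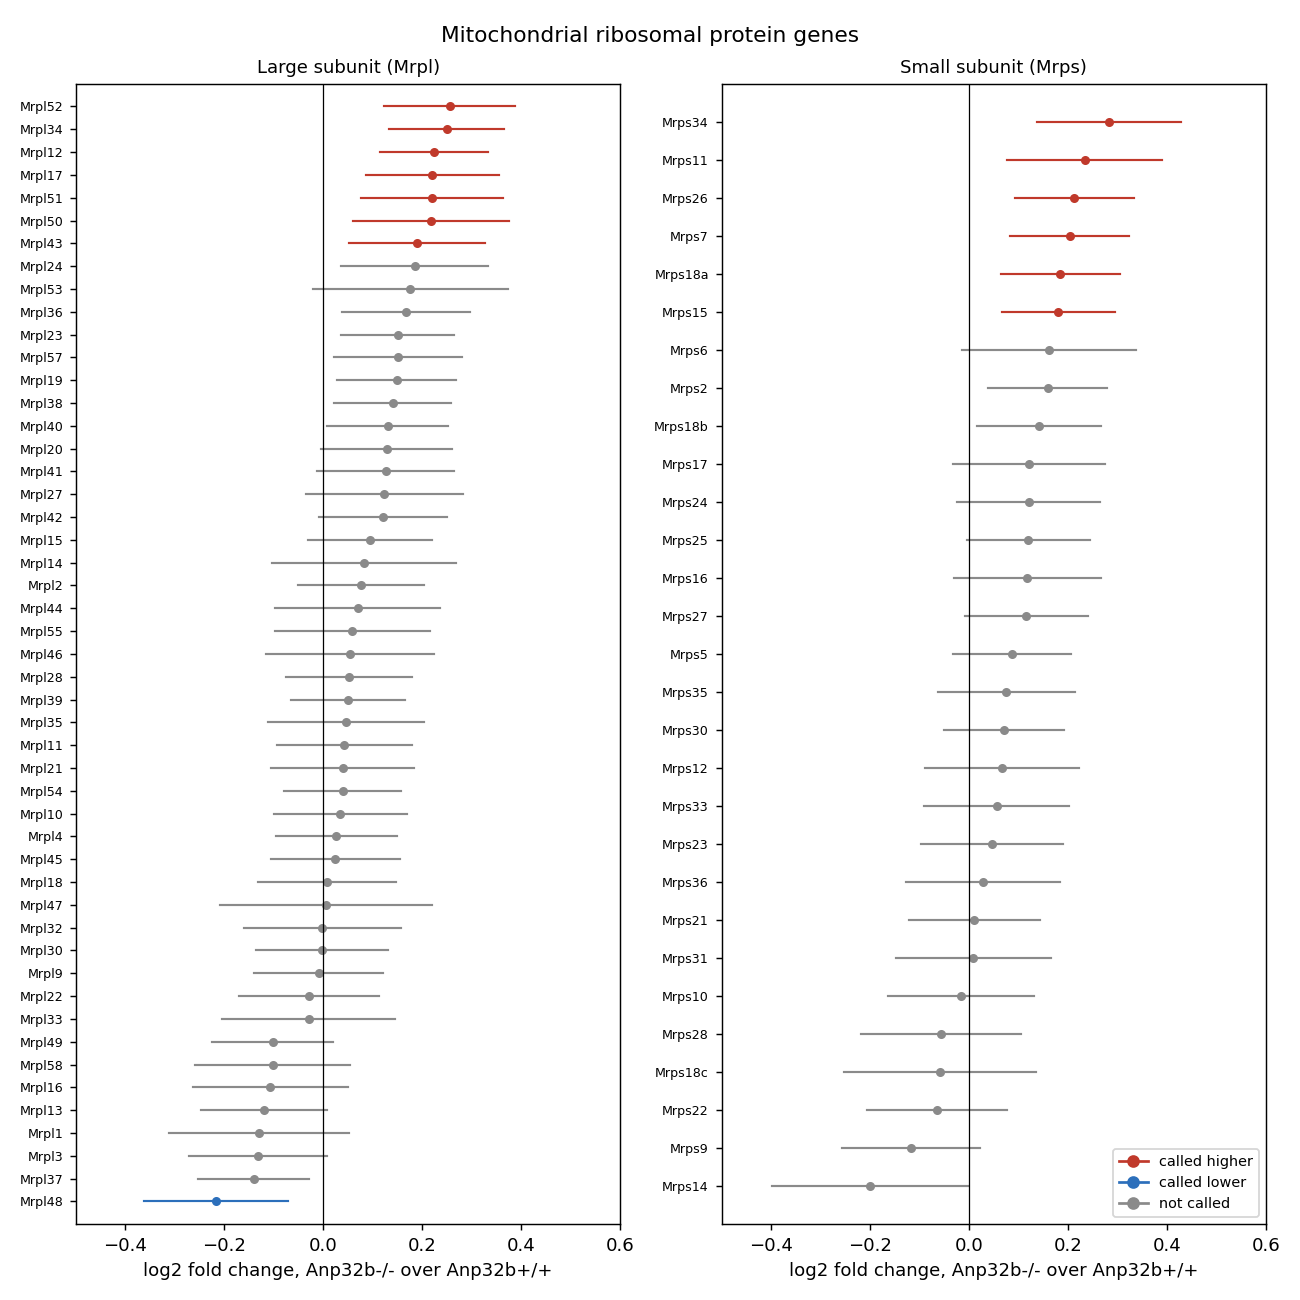
Log2 fold change (knockout over wild type) of each ribosome gene with its 95% interval from edgeR, large subunit on the left and small subunit on the right, sorted by value. Most intervals cross 0, 13 genes are called higher and Mrpl48 is called lower.

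Of 49 large subunit genes, 7 were called higher in knockout and Mrpl48 was called lower. That is 14.3% and 2.04%, beside 10.9% and 12.6% of all tested genes. Among genes within the members' range of levels the shares were 13.4% and 9.70%. Mrpl34, whose protein has a bacterial counterpart in the large subunit, was at 99.8 and 100.02 CPM in knockout, against 82.6 and 85.5 CPM in wild type. The genotypes did not overlap, and the log2 fold change was 0.25 (SE 0.05, edgeR adjusted p = 0.00387). Mrpl12, the stalk protein that helps recruit translation factors and also binds the mitochondrial RNA polymerase, was at 205 and 210 CPM in knockout, against 176 and 178 CPM in wild type. Its log2 fold change was 0.22 (SE 0.05, edgeR adjusted p = 0.00522). Both knockout libraries again lay above both wild-type libraries, and its exons overlap Gm16755 on the other strand. Mrpl34 and Mrpl12 were the 2 members that DESeq2 also called (adjusted p = 0.017 and 0.0075).

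Mrpl52, a protein found in mitochondrial and not bacterial ribosomes, was at 55.4 and 54.7 CPM in knockout, against 46.2 and 46.0 CPM in wild type (log2 fold change 0.26, SE 0.06, edgeR adjusted p = 0.00795). Replicates of a genotype lay close together here. Mrpl17, which has a bacterial counterpart, was at 63.3 and 68.8 CPM in knockout, against 56.5 and 56.8 CPM in wild type (0.22, SE 0.06, adjusted p = 0.0203). Mrpl51, Mrpl50 and Mrpl43 are proteins specific to mitochondrial ribosomes. Mrpl51 was at 64.4 and 69.965 CPM in knockout, against 55.1 and 60.3 CPM in wild type (adjusted p = 0.0281). Mrpl50 was at 50.9 and 45.5 CPM in knockout, against 40.008 and 42.9 CPM in wild type (adjusted p = 0.0446). Mrpl43, whose exons overlap those of Twnk on the other strand, was at 73.9 and 82.8 CPM in knockout, against 68.7 and 68.7 CPM in wild type (adjusted p = 0.0453). For all of these the genotypes did not overlap, but for Mrpl50 the lower knockout library stood close above the higher wild-type one. None of the 7 was called without knockout replicate 1 (adjusted p from 0.0551 to 0.427) or without knockout replicate 2 (0.109 to 0.515). Mrpl50 and Mrpl51 were also not called without wild-type replicate 1 (highest adjusted p = 0.113), nor Mrpl43 without wild-type replicate 2 (0.0562). The log2 fold change of Mrpl43 was 0.11 without knockout replicate 2, and that of Mrpl50 was 0.14 without knockout replicate 1.

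Mrpl48, also specific to mitochondrial ribosomes, was at 47.1 and 46.4 CPM in knockout, against 51.7 and 57.1 CPM in wild type (log2 fold change -0.22, SE 0.07, edgeR adjusted p = 0.0319). GENCODE lists a processed pseudogene of this gene and an overlapping gene on the other strand, Rab6a, and its estimated reads were not whole numbers in every library, so this value is uncertain. It was not called when knockout replicate 1 (adjusted p = 0.179), knockout replicate 2 (0.285) or wild-type replicate 2 (0.13) was left out. Mrpl37, named after its values were seen, was at 155 and 160 CPM in knockout, against 176 and 171 CPM in wild type (-0.14, adjusted p = 0.0647). It did not pass the test, although its genotypes did not overlap. Per kilobase of transcript the highest large subunit gene was Mrpl42, with 215 CPM per kilobase over the 4 libraries. Its level was 140 and 156 CPM in knockout, against 133 and 139 CPM in wild type (0.12, adjusted p = 0.175). The 41 large subunit genes that were not called had log2 fold changes from -0.14 to 0.18.

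Of 29 small subunit genes, 6 were called higher in knockout and none lower. That is 20.7% higher, beside 10.9% of all tested genes and 13.4% of genes within the members' range of levels. The shares called lower were 12.6% and 9.70% in these 2 sets. At an unadjusted p under 0.05 there were 8 higher and 1 lower, beside the 16.9% and 17.9% of all tested genes. DESeq2 called none. The classes go by symbol, which does not by itself place a product in the ribosome or in a subunit. Mrps34, a protein specific to mitochondrial ribosomes that is needed for a stable small subunit, was at 45.7 and 48.6 CPM in knockout, against 39.6 and 38.0 CPM in wild type. At 0.28 (SE 0.07, edgeR adjusted p = 0.00743), its log2 fold change was the highest of the ribosome genes. Its exons overlap those of Nme3 on the same strand and Mapk8ip3 on the other. Mrps26, specific to mitochondrial ribosomes, was at 83.5 and 84.8 CPM in knockout, against 71.5 and 73.7 CPM in wild type (0.21, SE 0.06, adjusted p = 0.0131). Mrps7, which has a bacterial counterpart that binds the small ribosomal RNA, was at 85.1 and 87.4 CPM in knockout, against 73.6 and 76.3 CPM in wild type (0.20, SE 0.06, adjusted p = 0.0172). In all 3 the knockout libraries lay above the wild-type libraries.

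Mrps15 was at 119 and 121 CPM in knockout, against 108 and 104 CPM in wild type (log2 fold change 0.18, edgeR adjusted p = 0.0237). Mrps11 was at 40.2 and 44.9 CPM in knockout, against 35.5 and 36.9 CPM in wild type (0.23, adjusted p = 0.0329), and overlaps Mrpl46 on the other strand. Both have bacterial counterparts. The Mrps18 genes are 3 relatives of a bacterial small subunit protein, and in mammalian structures the product of Mrps18a sits in the large subunit in spite of its name, so that 1 of the 6 calls counted here by symbol belongs to a large subunit protein. Mrps18a was at 85.3 and 88.5 CPM in knockout, against 75.2 and 77.7 CPM in wild type (0.18, adjusted p = 0.0281). Mrps18b was at 82.9 and 88.7 CPM in knockout, against 76.6 and 79.0 CPM in wild type (0.14, adjusted p = 0.0995). Mrps18c was at 38.7 and 43.8 CPM in knockout, against 38.8 and 47.1 CPM in wild type (-0.058, adjusted p = 0.700). So the knockout libraries were above wild type for Mrps18a and Mrps18b, of which Mrps18a passed the test, and the genotypes overlapped for Mrps18c. Differences between these 3 were not tested. Of the 6 called small subunit genes, Mrps34 was the 1 still called without knockout replicate 1 (adjusted p from 0.0369 to 0.165 over the 6), and none was without knockout replicate 2 (0.178 to 0.391). Mrps11 was not called without wild-type replicate 1 (0.0625), and its log2 fold change was 0.15 without knockout replicate 2.

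Per kilobase the highest small subunit gene was Mrps21, with 196 CPM per kilobase. It was at 78.3 and 81.0 CPM in knockout, against 75.3 and 82.9 CPM in wild type (log2 fold change 0.010, edgeR adjusted p = 0.929), and the genotypes overlapped. The sign of this value was negative with upper-quartile normalization. Mrps14, which has a bacterial counterpart, was at 37.9 and 38.5 CPM in knockout, against 38.8 and 49.0 CPM in wild type (-0.20, adjusted p = 0.140). Wild-type replicate 2 stood apart from the other 3 libraries there. Without it the log2 fold change of Mrps14 was -0.02 (adjusted p = 0.86), and without wild-type replicate 1 it was -0.36 and Mrps14 was called lower (adjusted p = 0.000595).

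**Figure D2:**
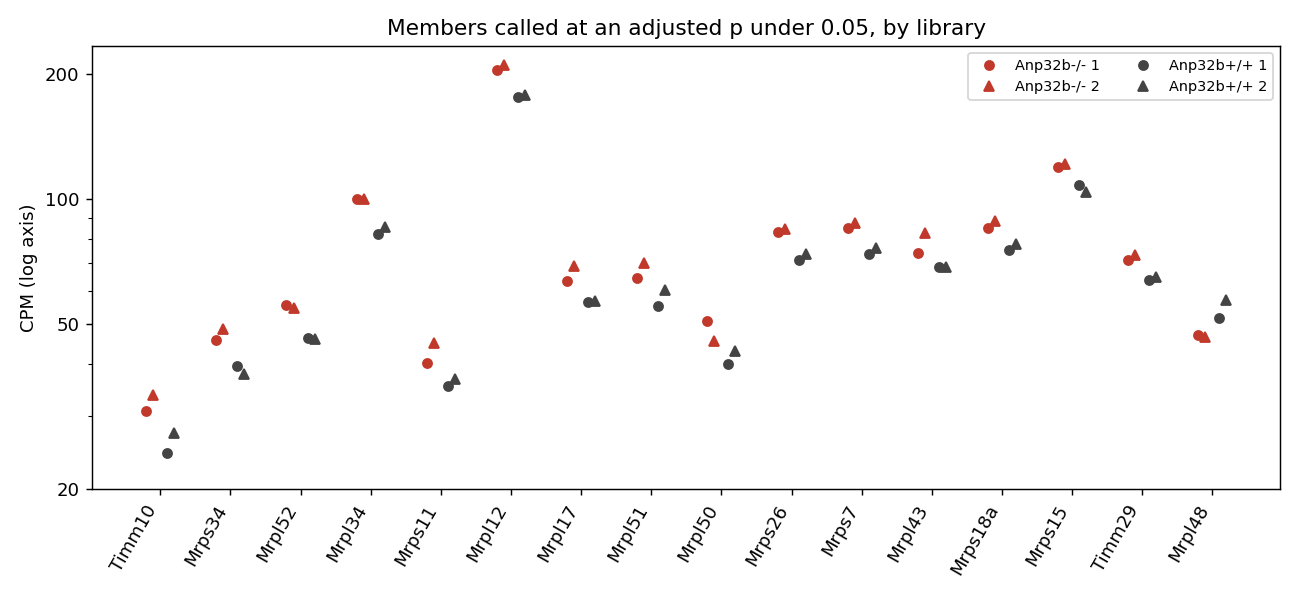
CPM of the 16 called members in each library on a log axis, knockout in red to the left of wild type in grey, circles for replicate 1 and triangles for replicate 2. The knockout points lie above the wild-type points for 15 members and below them for Mrpl48.

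Among the import genes, Timm10 and Timm29 were called higher in knockout and no member was called lower. Timm10, a small TIM protein that with Timm9 chaperones carrier proteins across the intermembrane space, was at 30.8 and 33.7 CPM in knockout, against 24.5 and 27.3 CPM in wild type. Its log2 fold change of 0.31 (SE 0.08, edgeR adjusted p = 0.0121) was the largest among the 103 members. Its partner Timm9 was at 41.5 and 41.2 CPM in knockout, against 37.5 and 45.1 CPM in wild type, so the knockout libraries lay between the wild-type libraries (0.00015, adjusted p = 0.999). Timm10b, the relative of Timm10 at the TIM22 complex, was at 36.5 and 35.5 CPM in knockout, against 32.2 and 35.0 CPM in wild type (0.099, adjusted p = 0.368). Timm29, a TIM22 complex subunit of animals, was at 71.1 and 73.4 CPM in knockout, against 63.8 and 64.8 CPM in wild type (0.17, SE 0.06, adjusted p = 0.0477). Its exons overlap Yipf2 on the other strand, and its reads were not all whole. Timm22, the channel of that complex, was at 28.9 and 30.0 CPM in knockout, against 30.0 and 32.1 CPM in wild type (-0.076, adjusted p = 0.516). Neither call held without knockout replicate 2 (adjusted p = 0.232 and 0.362 as lowest and highest). Timm10 was called without knockout replicate 1 (0.0328) and without wild-type replicate 1 (0.0468), and Timm29 was not (0.188 and 0.060).

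Timm13, Timm8a1 and Timm8b are further small TIM proteins. Timm13 was at 85.9 and 85.0 CPM in knockout, against 79.7 and 79.6 CPM in wild type (log2 fold change 0.10, edgeR adjusted p = 0.205). Timm8a1, on the X chromosome, was at 108 and 115 CPM in knockout, against 94.2 and 106 CPM in wild type (0.16, adjusted p = 0.0929). Timm8b was at 27.3 and 28.6 CPM in knockout, against 25.7 and 32.7 CPM in wild type (-0.061, adjusted p = 0.714). The libraries of Timm8b overlapped, and those of Timm13 and Timm8a1 did not, but none of them passed the test. Timm8a1 was called higher without wild-type replicate 2 (0.24, adjusted p = 0.00458) and had a log2 fold change of 0.08 without wild-type replicate 1 (adjusted p = 0.323). Timm8a2, a relative of Timm8a1, did not pass the filter, with at most 0.30 CPM in any library.

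No gene of the presequence translocase was called with all 4 libraries by the stated edgeR test or by DESeq2. With the replicate number as a block, Timm21 was called higher. Timm23, its channel, was at 248 and 240 CPM in knockout, against 216 and 240 CPM in wild type (log2 fold change 0.099, edgeR adjusted p = 0.251). It was the highest Timm gene per kilobase, at 303 CPM per kilobase. Timm23 was called higher without wild-type replicate 2 (0.17, adjusted p = 0.00945), and with wild-type replicate 1 left out its value was 0.03 (adjusted p = 0.727). Timm17a and Timm17b encode alternative partners of the channel. Timm17a was at 52.6 and 51.7 CPM in knockout, against 48.8 and 53.3 CPM in wild type (0.030, adjusted p = 0.791). Timm17b was at 58.6 and 57.5 CPM in knockout, against 53.2 and 52.7 CPM in wild type (0.13, adjusted p = 0.132). The wild-type libraries of Timm17a enclosed the knockout libraries, while those of Timm17b were both lower. Timm21, a regulatory subunit of the complex, was at 58.6 and 63.8 CPM in knockout, against 52.8 and 54.9 CPM in wild type (0.18, adjusted p = 0.0542), and it was called higher without wild-type replicate 2 (0.21, adjusted p = 0.0361). Timm50, the receptor for presequences, was at 133 and 133 CPM in knockout, against 124 and 133 CPM in wild type (0.052, adjusted p = 0.544). Timm44, which anchors the import motor, was at 88.9 and 89.6 CPM in knockout, against 85.8 and 91.2 CPM in wild type (0.012, adjusted p = 0.909). Timm44, Timm9 and other members outside the stated selection were named after their values were seen, so that every import gene is accounted for.

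None of the 9 tested Tomm genes was called by the stated edgeR test or by DESeq2. At an unadjusted edgeR p under 0.05 Tomm5 and Tomm6 were higher and Tomm70a and Tomm34 lower. That is 2 of 9 each way, a share not far from the 16.9% and 17.9% of all tested genes. With the replicate number as a block, Tomm5 and Tomm6 were called higher and Tomm70a lower. The receptors had values on both sides of 0. Tomm20, the presequence receptor, was at 300.4 and 305 CPM in knockout, against 283 and 295 CPM in wild type (log2 fold change 0.066, edgeR adjusted p = 0.398). Tomm22, the central receptor, was at 123 and 132 CPM in knockout, against 126 and 137 CPM in wild type (-0.048, adjusted p = 0.610). Tomm70a, the receptor for carrier proteins with bound chaperones, was at 175 and 175 CPM in knockout, against 192 and 193 CPM in wild type (-0.14, adjusted p = 0.0581). Its libraries did not overlap, and it was called lower with upper-quartile normalization, with a filter of 10 CPM and without either wild-type replicate (adjusted p from 0.0213 to 0.38 over the alternatives). Tomm34, a cytosolic co-chaperone of import, was at 106 and 107 CPM in knockout, against 116 and 115 CPM in wild type (-0.11, adjusted p = 0.139).

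Tomm40, the channel, was at 193 and 193 CPM in knockout, against 190 and 185 CPM in wild type (log2 fold change 0.046, edgeR adjusted p = 0.570). Its relative Tomm40l was at 36.3 and 34.2 CPM in knockout, against 34.1 and 34.5 CPM in wild type (0.041, adjusted p = 0.733). Tomm5, Tomm6 and Tomm7 are small subunits that assemble and stabilise the channel. Tomm6, the highest Tomm gene per kilobase at 373 CPM per kilobase, was at 254 and 272 CPM in knockout, against 231 and 245 CPM in wild type (0.15, adjusted p = 0.0739). It overlaps other annotated genes on both strands. Tomm5 was at 156 and 154 CPM in knockout, against 135 and 148 CPM in wild type (0.14, adjusted p = 0.103). Tomm7 was at 62.6 and 69.6 CPM in knockout, against 55.8 and 72.3 CPM in wild type (0.046, adjusted p = 0.783). The knockout libraries were the higher ones for Tomm5 and Tomm6 and lay between the wild-type libraries for Tomm7. Without wild-type replicate 2 all 3 were called higher: Tomm5 (0.20, adjusted p = 0.00547), Tomm6 (0.19, adjusted p = 0.00992) and Tomm7 (0.24, adjusted p = 0.0195). Without wild-type replicate 1 none of them was, with log2 fold changes of 0.07 for Tomm5, 0.10 for Tomm6 and -0.13 for Tomm7. Tomm20l, a relative of Tomm20 that overlaps Timm9 on the other strand, did not pass the filter, with at most 0.10 CPM in any library.

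**Figure D3:**
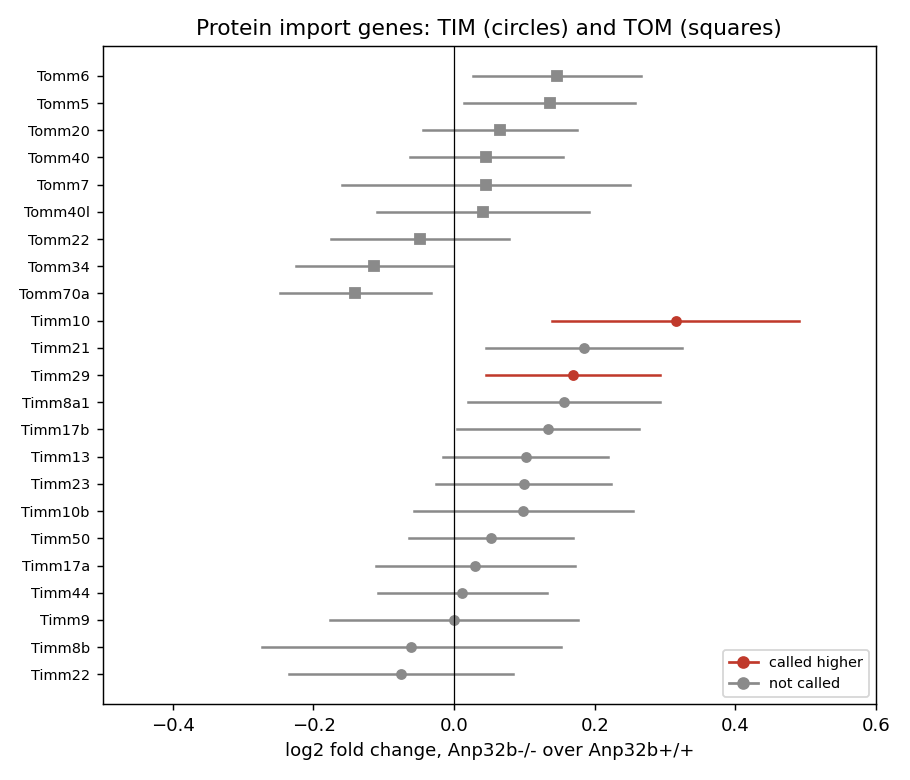
Log2 fold change (knockout over wild type) of each tested import gene with its 95% interval from edgeR, Timm genes as circles and Tomm genes as squares. Timm10 and Timm29 are called higher. For several uncalled genes, such as Tomm6 and Tomm70a, the interval, which is not adjusted for the number of genes, lies to one side of 0.

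Replicate agreement was compared within each genotype. Over the 101 tested members the median absolute log2 ratio between replicates was 0.058 in knockout and 0.088 in wild type. Over all tested genes it was 0.075 in knockout and 0.10 in wild type. Among the genes within the members' range of levels it was 0.053 in knockout and 0.077 in wild type. The members' medians were thus below those of all tested genes and above those of genes of like level. Ribosome genes had medians of 0.064 in knockout and 0.084 in wild type, and import genes 0.041 in knockout and 0.096 in wild type. The widest gaps were 0.23 in knockout (Mrpl14) and 0.37 in wild type (Tomm7). Mrpl47, whose protein has a bacterial counterpart, had the widest wild-type gap of the large subunit: it was at 27.4 and 32.0 CPM in knockout, against 26.6 and 32.6 CPM in wild type, with a log2 fold change of 0.0047 (edgeR adjusted p = 0.979). Timm8b (0.35) and Mrps14 (0.34) had the widest wild-type gaps of their classes. As a description over members, which share their libraries, log2 CPM of replicate 1 and 2 correlated with Pearson's r of 0.995 in knockout and 0.992 in wild type.

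These gaps had a common direction in wild type. Wild-type replicate 2 was above wild-type replicate 1 for 81 of the 101 tested members (80.2%), where 47.7% of all tested genes showed this. The median log2 ratio of wild-type replicate 2 over replicate 1 was 0.082 for members and -0.0082 for all tested genes. Knockout replicate 2 was above knockout replicate 1 for 66 members (65.3%), against 50.8% of all tested genes, with a median of 0.047. The median log2 fold change between the genotypes was 0.066 over the same members, below the median shift between the wild-type replicates.

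**Figure D4:**
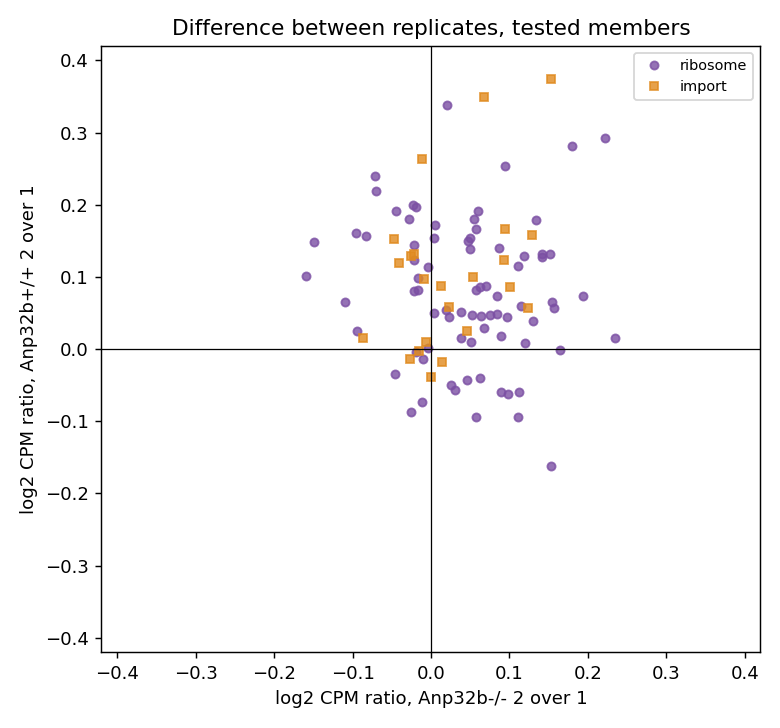
Log2 ratio of replicate 2 over replicate 1 in knockout (horizontal) and in wild type (vertical) for each of the 101 tested members, ribosome genes as circles and import genes as squares. Most points lie above the horizontal line at 0, where wild-type replicate 2 is the higher wild-type library (81 of 101).

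Summed levels were compared in the same way. The 78 ribosome genes together had 5389 and 5555 CPM in knockout, against 5080 and 5319 CPM in wild type. Their means were 5472 ± 118 CPM in knockout and 5200 ± 169 CPM in wild type (SD, n = 2 each), a difference of 5.24%, while wild-type replicate 2 was 4.70% above wild-type replicate 1. Summed in the same way, the genes within the members' range of levels differed by 1.56% between the genotypes and by -0.354% between the wild-type replicates. For all listed genes these were 1.64% and 0.788%. The sum over all listed genes is nearly fixed by the TMM factors, so these 2 values describe the scaling and not expression. The 25 import genes together had 2478 and 2519 CPM in knockout, against 2331 and 2472 CPM in wild type. That difference was 4.04%, and the wild-type replicates were 6.03% apart. Knockout replicate 1 was 1.31% above wild-type replicate 2 for ribosome genes and 0.237% for import genes. Small subunit genes differed by 6.30%, large subunit genes by 4.69%, Timm genes by 6.58% and Tomm genes by 2.21%. For Tomm genes the genotypes overlapped, at 1408 and 1442 CPM in knockout, against 1363 and 1425 CPM in wild type. No p was computed for these sums.

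**Figure D5:**
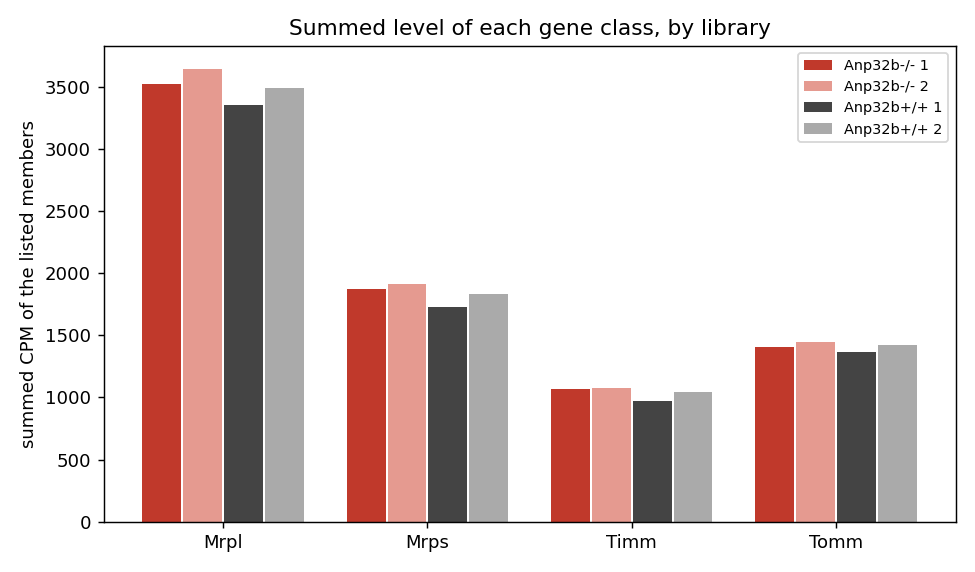
Summed CPM of the listed Mrpl, Mrps, Timm and Tomm genes in each library, the knockout libraries in red to the left of the wild-type libraries in grey, with bars starting at 0. The bars of a class differ by a few percent, and wild-type replicate 2 stands above wild-type replicate 1 in each class.

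The members share short transcripts and a spread over the genome. The median transcript length was 1125 bases for tested members and 2181 for all tested genes, and the genes lie on 20 chromosomes with at most 12 on one (chromosome 11). Shorter genes of all kinds had slightly higher values: the median log2 fold change was 0.029 among all 2088 tested genes under 1000 bases, and -0.027 among the 2047 of 4000 bases or more. The 46 members under 1000 bases had a median of 0.090, the 31 between 1000 and 2000 bases 0.046, the 20 between 2000 and 4000 bases 0.068, and the 4 longer ones 0.13. The part of length in the members' values was not tested. In GENCODE, 45 of the 103 members overlap exons of another gene, 9 of the 16 called members among them, and the strand setting of the counting is not known. A protein-coding gene starting within 1000 bases in the opposite direction was found for 24 members, by GENCODE gene bounds. Of the 16 called members 3 (Mrpl50, Mrpl51 and Mrps34) had such a neighbour in this count. None of the 3 neighbours was called (log2 fold changes of 0.14 for Zfp189, 0.029 for Ncapd2 and 0.11 for Eme2). Head-to-head genes that overlap further in GENCODE were not counted, so both counts are minimums. Mrps11, called higher, and Mrpl46, not called, overlap on opposite strands and were left out in this way.

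Of 92 tested genes in 7 further lists of mitochondrial translation and import, 5 were called higher and none lower (12 and 3 at an unadjusted p under 0.05, and 4 and 0 by DESeq2), with a median of 0.044. That is 5.43% higher, beside 10.9% of all tested genes. Of 23 tested genes in 2 lists of mitochondrial DNA upkeep and of transcription factors, 4 were called higher and 1 lower, with a median of 0.086. These are 17.4% and 4.35%, beside 10.9% and 12.6% of all tested genes. No gene was called by edgeR or DESeq2 among 5 ribosomal proteins with other symbols (median 0.048), 21 ribosome assembly factors (0.044) or 12 genes of the import motor and the Mia40 relay (0.058). At an unadjusted p under 0.05 there were 1, 0 and 1 higher in these lists and 1 lower in the last of them. Of 15 translation factors 1 was called higher (median 0.046): Slirp, whose product stabilises mitochondrial messenger RNAs, at 39.6 and 43.1 CPM in knockout, against 26.4 and 34.2 CPM in wild type (log2 fold change 0.45, SE 0.10, edgeR adjusted p = 0.00465). Of 17 mitochondrial aminoacyl-tRNA synthetases 1 was called higher (median 0.021), Vars2 for valine (0.21, adjusted p = 0.0305). Of 11 genes of mitochondrial DNA transcription and upkeep 2 were called higher (median 0.12): Polrmt, the mitochondrial RNA polymerase (0.24, adjusted p = 0.0115), and Polg, the DNA polymerase (0.20, adjusted p = 0.0463).

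Of 6 genes for sorting and assembly of outer membrane proteins 1 was called higher (median 0.057), Mtch1, whose product inserts proteins into that membrane (log2 fold change 0.20, edgeR adjusted p = 0.0109). Of 16 peptidase and chaperonin genes 2 were called higher (median 0.015). Clpp, the matrix protease, was at 78.5 and 74.3 CPM in knockout, against 55.7 and 57.1 CPM in wild type (0.44, SE 0.06, adjusted p = 8.83e-05). Htra2, a protease of the intermembrane space, was at 115 and 119 CPM in knockout, against 92.2 and 93.3 CPM in wild type (0.33, SE 0.05, adjusted p = 0.000416). Both values lay above that of every tested ribosome and import gene, with Htra2 close to Timm10. Of 12 regulators of mitochondrial genes 2 were called higher and 1 lower (median 0.0041): the coactivators Pprc1 (0.17, adjusted p = 0.0346) and Ppargc1b (0.27, adjusted p = 0.0382), and Myc. At an unadjusted edgeR p under 0.05, 3 of the regulators were higher and 4 lower, beside 16.9% and 17.9% of all tested genes. Myc was at 35.2 and 33.6 CPM in knockout, against 86.7 and 79.3 CPM in wild type (-1.27, SE 0.07, adjusted p = 8.90e-09). Mycn, the N-myc gene of the same list and much higher in level, was at 944 and 921 CPM in knockout, against 1013 and 857 CPM in wild type (-0.0033, adjusted p = 0.978). Both genotypes carried a transduced N-myc, and whether its reads are counted in this value is not known. Gabpa, the DNA-binding subunit of GABP, was at 106 and 105 CPM in knockout, against 113 and 105 CPM in wild type (-0.046, adjusted p = 0.612). Gabpb1, for a partner subunit, was at 85.4 and 85.9 CPM in knockout, against 92.7 and 94.3 CPM in wild type (-0.13, adjusted p = 0.106). Its relative Gabpb2 was at 147 and 144 CPM in knockout, against 163 and 155 CPM in wild type (-0.12, adjusted p = 0.110). The libraries of Mycn and Gabpa overlapped, and those of Gabpb1 and Gabpb2 were both lower in knockout. These genes were named after their values were seen. Of the 9 genes called higher in these lists, 3 were still called without knockout replicate 1 (Slirp, Clpp and Htra2), 1 without knockout replicate 2 (Clpp, adjusted p = 0.0134 as the lowest of the 9) and 5 without wild-type replicate 2. The 4 not called without wild-type replicate 2 were Vars2, Polg, Pprc1 and Ppargc1b (highest adjusted p = 0.174). The log2 fold change of Slirp was 0.27 with wild-type replicate 1 left out, and that of Polg was 0.13 without knockout replicate 1 and 0.12 without wild-type replicate 2.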

How the data were processed

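RNA-seq of 4 libraries, grouped by the genotype in their labels, was used. The authors deposited estimated read counts (expected counts) per gene symbol, 1 file per library, not scaled for depth, and 64.5% to 65.6% of a library's values were whole. HISAT2 2.0.4, GRCm38 and DESeq2 1.4.5 are listed in the submitters' processing notes. The tool that counted the reads, its annotation and its use of strand were not given in the sources used here. Counts were rounded and tested with edgeR 4.0.16 (R 4.3.3): quasi-likelihood test, TMM, filterByExpr (minimum count 10), no covariate, Benjamini-Hochberg adjustment over all 12123 tested genes, called at an adjusted p under 0.05. The standard error is the log2 fold change over the root of F. A count of 3, the limit a count of 0 allows, equals 0.151 to 0.155 CPM, for counting error only. The common biological coefficient of variation was 0.0409.

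Coordinates are from RefSeq (GRCm38.p6, 103 of 103 members matched), counted from 1; transcript lengths are medians of protein-coding GENCODE transcripts. Named genes are, per class, the called members, the highest per kilobase, the one with the widest replicate gap, close relatives and untested members. In each other list they are up to 3 called genes. The remaining import genes, Mrpl37, Mycn, Gabpa, Gabpb1 and Gabpb2 were added after their values were seen. Members and lists were chosen with earlier results of these data known. The listed symbols did not include Ict1 and Mrp63, older names of Mrpl58 and Mrpl57. Alternatives were RLE and upper-quartile normalization, DESeq2 1.42.0, no filter, a filter of 10 CPM in 2 libraries, the replicate number as a block and leaving out each library. The test was checked on counts simulated with the common variation for every gene. It recovered 66% of 50 genes changed 1.25-fold and 98% of 50 changed 1.5-fold, and 7 of 189 calls were false. No smaller change was simulated, and every tested member changed by less than 1.25-fold, so recovery at the members' size of change is not known. All libraries were given the same variation and no shift shared between genes, so the rate of false calls need not hold for these data. A gene that was not called is therefore not shown to be unchanged.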

Additional observations from a re-analysis of the deposited data

How the results depend on the processing

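No median of a class changed sign; that of Tomm genes was 0.015 and that of large subunit genes 0.024 with upper-quartile normalization. Without 1 library the median ranged from 0.036 to 0.094 for large subunit, 0.033 to 0.127 for small subunit, 0.033 to 0.129 for Timm and 0.034 to 0.049 for Tomm genes. Counts of calls in ribosome and import genes depended on the settings, and the cause was not tested. RLE normalization changed none of them. Ribosome genes called higher (13) were 7 with upper-quartile normalization, 3 with no filter, 2 with DESeq2, and 0 to 20 when a library was left out; those called lower (1) were 2 with upper-quartile normalization, 0 with no filter, 2 with a filter of 10 CPM, 0 with DESeq2 and 0 to 7 without a library. Import genes called higher (2) were 1 with upper-quartile normalization, 0 with no filter, 1 with a filter of 10 CPM, 0 with DESeq2 and 0 to 8 without a library; those called lower (0) were 1 with upper-quartile normalization, 1 with a filter of 10 CPM and 0 to 1 without a library. The genes of the 9 other lists, of translation, import, mitochondrial DNA and transcription factors, called higher (9) were 5 with upper-quartile normalization, 2 with no filter, 4 with DESeq2 and 1 to 13 without a library; those called lower (1) were 5 with upper-quartile normalization, 3 with a filter of 10 CPM and 1 to 8 without a library. With the filter of 10 CPM 11.3% of the genes tested were called higher and 12.5% lower. A fit that leaves out a library assumes that the lone one varies like the pair of the other genotype.

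With the replicate number as a block, ribosome genes called were 19 higher and 3 lower, import genes 6 higher and 1 lower, and the genes of the other lists 9 higher and 3 lower, beside 13.6% and 14.7% of all tested genes. The import genes gained were Timm21, Timm8a1, Tomm5 and Tomm6 (higher) and Tomm70a (lower). Deviations of knockout 1 and wild type 1 from their genotype means correlated at 0.035 over 12123 genes. A correlation over all genes does not describe the members alone. Replicate 2 was the higher library for 81 of the 101 tested members in wild type and for 66 in knockout. A pairing of the libraries by replicate number was not tested.

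No called gene changed sign in any setting run. Members near 0 did: with upper-quartile normalization and with a filter of 10 CPM the log2 fold change was -0.03 and -0.01 for Mrpl47, -0.02 and -0.0089 for Mrps21, -0.02 and -0.0073 for Timm44, and -0.03 and -0.02 for Timm9. Without 1 library the range was -0.13 to 0.15 for Mrpl47, -0.06 to 0.08 for Mrps21, -0.03 to 0.05 for Timm44, -0.13 to 0.13 for Timm9, -0.19 to 0.09 for Mrps18c, -0.03 to 0.09 for Timm17a, -0.22 to 0.12 for Timm8b, -0.11 to 0.01 for Tomm22, -0.00041 to 0.08 for Tomm40l and -0.13 to 0.24 for Tomm7.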
